A study of Mus musculus with 12 samples.

Results

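Transcription factor genes of the B cell lineage are described here as a set: Pax5, Ebf1, Spib, Spi1, Pou2af1, Bach2, Irf8, Tcf4, Bcl11a and Mef2c. They are 10 of 24478 gene symbols in the deposited tables. They were chosen by name, with earlier results of these data known. Each gene was represented by its transcript row with the most reads over 12 libraries. Poly(A) RNA of mouse thymic tissue was sequenced in 4 groups of 3 libraries, which address how the MYC mutants T58A and S62A alter the transcriptome of the thymus. MYC is a growth-promoting transcription factor, and in these mutants an alanine replaces 1 of 2 phosphorylated residues that set its stability.

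The control group was thymic tissue labelled as T lymphocytes that express endogenous MYC only. The T58A lymphomas and the S62A lymphomas were spontaneous thymic lymphomas, labelled as T lymphocytes that express the ectopic mutant only. The S62A splenomegaly group consisted of thymic masses from S62A mice with an enlarged spleen. It was labelled as T and B lymphocytes that express both ectopic S62A and endogenous MYC. The sources used here give neither the promoter or cell type that drives the ectopic MYC nor the strain and age of the mice. Whether each library comes from an animal of its own is not stated, and p-values therefore cover the library-to-library spread, part of which may be technical.

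B cells arise when Spi1 (PU.1), Ebf1 and Pax5 act in turn on a progenitor. Spi1 also drives the myeloid lineages, Ebf1 specifies the B lineage, and Pax5 holds the committed cell in it and represses genes of other lineages, T lineage genes among them. Spib, an ETS factor related to Spi1, and Pou2af1 (OCA-B), a coactivator of the octamer-binding factors, act in mature B cells. Bach2 holds back the plasma cell programme and is also used by T cells. Irf8, Tcf4 (E2-2), Bcl11a and Mef2c act in B cells too, and the first 3 also serve dendritic cells. In a normal thymus B cells and dendritic cells are minor populations among T lineage cells. In bulk tissue, fewer cells of a type and less RNA per cell cannot be told apart.

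The region at the start site of 3 members is shown because it holds letters that other members of the set are known to recognise. RefSeq promoter windows of GRCm38.p6, which is not the mm9 build of the deposited tables, were matched by symbol for 8 of the 10 members. Spi1 and Tcf4 were not matched or not used here. Each window held 250 bases before the start site and 50 from it on, and 4 motifs were searched on both strands. They were GAGGAA for PU.1, CCCNNGGG for EBF factors, ATGCAAAT for octamer-binding factors and CAGGTG, an E2-box. The sequences below end 30 bases into the transcript, run 5′ to 3′ and carry the motif in capitals.
Spib: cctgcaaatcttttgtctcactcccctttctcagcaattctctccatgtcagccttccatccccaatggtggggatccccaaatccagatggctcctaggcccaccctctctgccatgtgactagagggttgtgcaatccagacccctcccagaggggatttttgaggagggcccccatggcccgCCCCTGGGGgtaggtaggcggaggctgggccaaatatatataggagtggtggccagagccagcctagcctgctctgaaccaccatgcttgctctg
Pou2af1: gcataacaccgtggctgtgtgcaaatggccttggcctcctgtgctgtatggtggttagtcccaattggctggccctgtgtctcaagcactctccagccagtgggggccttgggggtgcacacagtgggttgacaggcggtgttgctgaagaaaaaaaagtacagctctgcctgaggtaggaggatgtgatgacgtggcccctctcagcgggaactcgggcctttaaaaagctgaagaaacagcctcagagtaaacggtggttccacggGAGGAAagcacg
Mef2c: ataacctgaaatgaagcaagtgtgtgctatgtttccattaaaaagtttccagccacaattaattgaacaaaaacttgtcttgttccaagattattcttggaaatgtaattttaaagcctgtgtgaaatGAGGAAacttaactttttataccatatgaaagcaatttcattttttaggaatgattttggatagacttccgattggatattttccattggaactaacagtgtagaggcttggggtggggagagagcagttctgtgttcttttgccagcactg

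The Spib sequence is chr7:44532042-44532321 on the minus strand. Its capitals are 2 overlapping EBF cores that begin 65 and 64 bases before the start site. The EBF core reads the same on both strands, so each is counted once. In the Pou2af1 sequence, chr9:51213440-51213719 on the plus strand, a PU.1 core begins 18 bases after the start site. In the first window of Mef2c, chr13:83503784-83504063 on the plus strand, a PU.1 core begins 122 bases before it. The 8 members had 12 windows, since some genes have several start sites and so more chances of a match. The PU.1 core was found in 4 of the 12 windows (of Pou2af1, Ebf1 and Mef2c), and in 28.3% of 32851 windows in the table. The EBF core was found in 2 of 12 (of Spib and Irf8) and 13.7% of all windows, and the E2-box in 1 of 12 (of Irf8) and 20.2%. The octamer was found in 0 of 12 and in 1.74% of all windows, and Pax5, Bach2 and Bcl11a held none of the 4 motifs. These are matches of letters, not sites of binding.

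Between 9577373 and 22437969 reads per library fell on genes. Values below are CPM, the reads of a gene per 1000000 reads of its library after scaling between libraries, unless FPKM is named. Titles carry a letter code that was G for controls 1 and 2, H for control 3 and all T58A lymphomas, and I for all S62A libraries. What the code stands for is not given, so it cannot be told apart from the group wherever S62A libraries were set against others. The summed level of 15 T cell genes ran from 14688 to 14757 CPM in controls. The T58A lymphomas held 8270 to 8857 CPM of them, the S62A lymphomas 7959 to 10324 and splenomegaly 1311 to 1439. The summed level of 20 B cell surface and signalling genes was 461.9 to 522.8 CPM in controls. It was 944.9, 1062 and 464 in the 3 T58A lymphomas, 399.5 to 624.9 in S62A lymphomas and 4288 to 5001 in splenomegaly, and none of the 20 genes was at 0 reads in any group.

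The factors that set B lineage identity, Ebf1 and Pax5, were low in controls and highest in splenomegaly. Pax5 (NM_008782, minus strand of chr4:44544378-44723312, mm9) stood at 0.929, 0.937 and 1.04 CPM in the 3 controls. It stood at 23.1, 26.9 and 28.9 CPM in splenomegaly. The 2 groups did not overlap. In T58A lymphomas it stood at 5.14, 6.82 and 0.863 CPM, so that libraries 1 and 2 lay above every control and library 3 below every control. In S62A lymphomas it stood at 0, 0.216 and 0 CPM, 3 reads in all, below every library of the other groups.

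Ebf1 (NM_001290709, plus strand of chr11:44431602-44821598) stood at 2.58, 2.75 and 6.06 CPM in controls. It stood at 11.3, 17.6 and 7.82 CPM in T58A lymphomas and at 45.6, 61.6 and 48.8 CPM in splenomegaly, and these 3 groups did not overlap. In S62A lymphomas it stood at 3.5, 5.24 and 4.27 CPM, within the range of the controls. Control 3, the highest control, also had the highest summed level of 10 adipocyte genes, 1602 CPM against 86.6 and 148.2 in controls 1 and 2, and the part of this in its Ebf1 level was not tested.

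The ETS factors Spi1 and Spib differed from each other in the lymphomas. Spib (NM_019866, minus strand of chr7:51781365-51787441) stood at 40.1, 32.6 and 29.1 CPM in controls and at 278.9, 352.7 and 335.6 CPM in splenomegaly. In T58A lymphomas its 3 libraries lay far apart, at 30.1, 62.2 and 4.89 CPM. In S62A lymphomas they lay close together and below all others, at 3.44, 3.59 and 3.33 CPM. Spi1 (NM_011355, plus strand of chr2:90936835-90955916) stood at 19.0, 19.4 and 14.6 CPM in controls. It stood at 80.9, 52.6 and 21.9 CPM in T58A lymphomas and at 51.2, 85.4 and 18.7 CPM in S62A lymphomas, and only S62A lymphoma 3 lay within the range of the controls. In splenomegaly it stood at 322.3, 144.7 and 128.7 CPM, above all libraries of the other groups.

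Spi1 is also a macrophage gene, and the summed level of 15 macrophage and monocyte genes moved in the same direction. It ran from 673.8 to 779.2 CPM in controls and from 4610 to 8470 in splenomegaly. The T58A lymphomas held 2253 to 3623 CPM and the S62A lymphomas 2076 to 3244, and none of the 15 genes was at 0 reads in a group. Splenomegaly 1, the library with the most Spi1, had the highest of these sums. S62A lymphoma 3, the lymphoma with the least Spi1, had a sum of 3151 CPM, of which Itgam, a gene of myeloid cells and some lymphocytes, made up 1514. The part of macrophages in the Spi1 level was not tested.

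Of the 10 members, Pou2af1 had the largest fold over control in each of the 3 other groups. The gene (NM_011136, plus strand of chr9:51021795-51048184) stood at 17.0, 15.0 and 13.6 CPM in controls. It stood at 374, 238.8 and 65.1 CPM in T58A lymphomas, at 1010, 202 and 1532 CPM in S62A lymphomas and at 942.5, 1110 and 1365 CPM in splenomegaly. Every library of the 3 other groups lay above every control. The S62A lymphomas reached from within the range of T58A lymphomas to above that of splenomegaly. Among its known partners, Pou2f2 (Oct2) stood at 4.05 ± 0.337 CPM in controls and 87.0 ± 12.9 CPM in splenomegaly (SD, n = 3). In T58A lymphomas Pou2f2 stood at 19.6, 8.79 and 2.88 CPM and in S62A lymphomas at 19.9, 22.3 and 2.93 CPM. Library 3 of each lymphoma lay below every control for Pou2f2, though S62A lymphoma 3 held the most Pou2af1 of all libraries. Pou2f1 (Oct1) stood at 91.9 ± 3.5 CPM in controls and 75.0 ± 21.6 CPM in splenomegaly. It stood at 54.8 ± 3.72 CPM in T58A and 63.6 ± 8.59 CPM in S62A lymphomas.

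Bach2 was the member that was lower in both lymphomas than in controls in every library. It (NM_001109661, plus strand of chr4:32504410-32673083) stood at 42.8, 32.3 and 25.9 CPM in controls. It stood at 7.91, 6.07 and 2.47 CPM in T58A lymphomas and 2.23, 1.51 and 1.13 CPM in S62A lymphomas, and these 3 groups did not overlap. In splenomegaly it stood at 39.3, 61.9 and 52.5 CPM, which overlapped the controls.

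Irf8, Tcf4, Bcl11a and Mef2c shared a peak in splenomegaly and differed in the lymphomas. Irf8 (NM_001301811, plus strand of chr8:123262539-123280592) stood at 89.9, 86 and 82.6 CPM in controls and 562, 535.8 and 497.4 CPM in splenomegaly. In T58A lymphomas it stood at 76.2, 111.3 and 31.2 CPM, on both sides of the controls. In S62A lymphomas it stood at 30.8, 31.9 and 34.1 CPM, below every control. Tcf4 was the evenest member, at 59.5, 59.8 and 56.8 CPM in controls and at 77.2, 94.9 and 97 CPM in T58A lymphomas. It stood at 101.1, 70.7 and 85.5 CPM in S62A lymphomas and at 162.5, 255.6 and 275.6 CPM in splenomegaly. All Tcf4 libraries outside the control group lay above the controls.

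Bcl11a (NM_001242934, plus strand of chr11:23978056-24068435) stood at 6.4, 5.34 and 4.55 CPM in controls and at 47.8, 75.3 and 53.7 CPM in splenomegaly. In T58A lymphomas it stood at 9.24, 8.58 and 1.9 CPM, with library 3 below and the other libraries above all controls. In S62A lymphomas it stood at 0.827, 3.02 and 0.934 CPM, below all controls. Mef2c (NM_001170537, plus strand of chr13:83643033-83806684) stood at 6.5, 6.72 and 6.45 CPM in controls. It stood at 30.1, 41.7 and 12.9 CPM in T58A lymphomas, above every control. Its S62A lymphomas, at 4.65, 7.26 and 5.73 CPM, lay on both sides of the controls, and its splenomegaly libraries, at 188.8, 285.4 and 315.8 CPM, lay above all others. Siglech, a marker of plasmacytoid dendritic cells, stood at 4.76 ± 0.279 CPM (SD, n = 3) in controls and 7.65 ± 1.55 in splenomegaly. It stood at 1.5, 4.95 and 0.0575 CPM in T58A lymphomas, on both sides of the controls, and at 0.348 ± 0.322 CPM in S62A lymphomas. Siglech was 1 of 14 listed genes of these cells, and the others did not all follow it. By the test described below, 6 of the 14 rose and 1 fell in splenomegaly against control. Ly6c2 went from 10.3 to 376.8 CPM there and Ccr9 from 863.7 to 4.61 CPM. In T58A lymphomas 3 rose and 3 fell, and in S62A lymphomas 1 rose and 5 fell. The part of dendritic cells in the levels of Irf8, Spib, Tcf4 and Bcl11a was not tested.

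**Figure D1:**
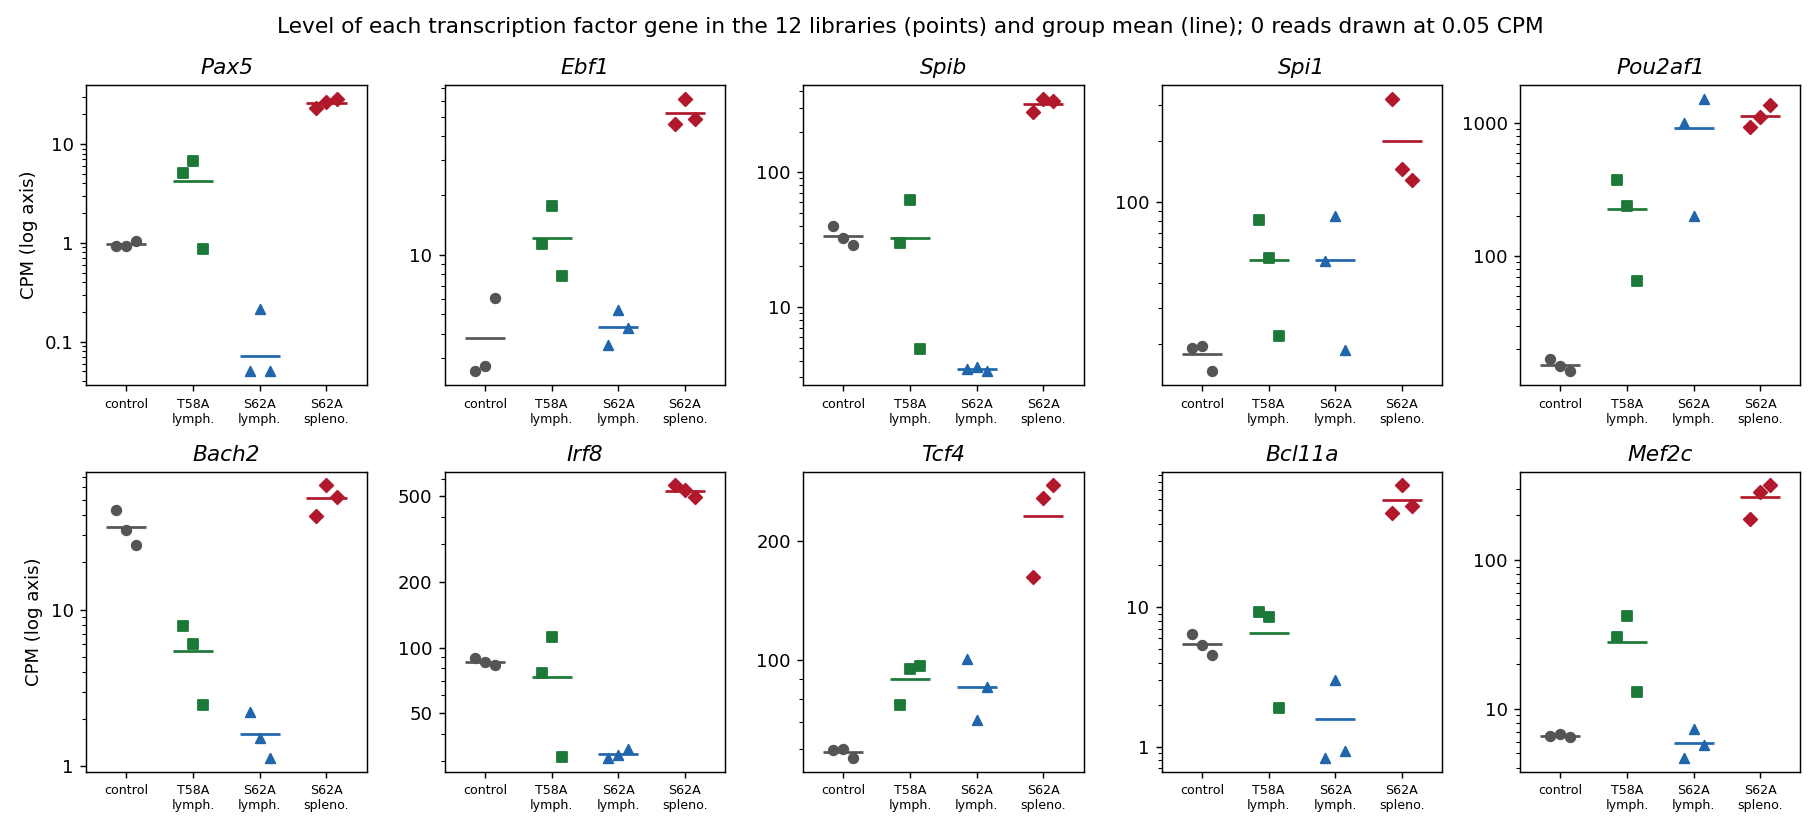
Level in CPM (log axis) of the 10 genes in the 4 groups, 1 point per library and a line at the group mean (n = 3), with 0 reads drawn at 0.05. Splenomegaly is highest for each gene, though it overlaps the controls for Bach2 and S62A lymphomas for Pou2af1, and T58A lymphoma 3 is the lowest of its group for every gene but Tcf4.

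Across genes, levels were compared as FPKM, which takes transcript length into account. In controls Irf8 was the most abundant member at 29.6 ± 1.48 FPKM (SD, n = 3), followed by Spi1 at 14.6 ± 2.35 and Spib at 13.9 ± 2.38, which overlapped each other. Ebf1, Bcl11a, Mef2c and Pax5 were the least abundant, between 0.861 and 1.2 FPKM. In splenomegaly the order differed: Pou2af1 led at 466.4 ± 87.0 FPKM, and Irf8 (169.9 ± 10.8), Spi1 (151.4 ± 79.5) and Spib (122.3 ± 17.0) followed. Pax5 reached 30.3 ± 3.67 FPKM there and Ebf1 11.0 ± 2.07. In S62A lymphomas Pou2af1 stood at 376.2 ± 275.6 FPKM beside Pax5 at 0.0841 ± 0.146.

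In splenomegaly against control, 9 of the 10 members rose, 0 fell and Bach2 did not pass the test. The rises ran from 3.94-fold for Tcf4 to 75.0-fold for Pou2af1, with Mef2c at 40.1-fold and Pax5 at 26.9-fold between. Tests were edgeR's quasi-likelihood test with Benjamini-Hochberg adjustment over all 15606 genes tested and a threshold of 0.05. By this test 22.9% of all genes were higher and 26.3% lower in splenomegaly. The median log2 fold change of the members was 3.46, and that of all genes −0.08.

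The log2 fold change (± SE) was 4.75 ± 0.76 for Pax5 (adjusted p = 0.000436 by edgeR) and 3.77 ± 0.41 for Ebf1 (3.42e-05). Mef2c, at 5.33 ± 0.41 (4.41e-06), had the smallest adjusted p of the set. Of the ETS pair, Spib rose by 3.25 ± 0.62 (0.00141) and Spi1 by 3.49 ± 0.61 (0.000803). Pou2af1 rose by 6.23 ± 0.81 (0.000114), Irf8 by 2.63 ± 0.34 (0.00011), Tcf4 by 1.98 ± 0.2 (2.3e-05) and Bcl11a by 3.44 ± 0.59 (0.000724). For Bach2 the value was 0.61 ± 0.37 (0.2), and the adjusted p was 0.0428 when only these 2 groups were fitted. In the same comparison 18 of 20 B cell surface and signalling genes rose and 0 fell, 8 of 8 plasma cell genes rose, and 14 of 15 T cell genes fell. Of 15 macrophage and monocyte genes 14 rose, of 8 germinal centre B cell genes 7 rose, and of 11 conventional dendritic cell genes 8 rose and 1 fell. Of 14 plasmacytoid dendritic cell genes 6 rose and 1 fell, and of 10 early B cell genes tested 4 rose and 4 fell, Rag1 and Rag2, which T lineage cells also use, among the latter.

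Among 26 other transcription factor genes of the B lineage, 13 rose, 10 fell and 3 did not pass the test. The risen ones included Prdm1 (Blimp-1), the factor that starts plasma cell differentiation and is held back by Bach2. It rose from 2.5 ± 0.454 to 117.0 ± 28.2 CPM (SD, n = 3), which is 5.54 ± 0.34 on the log2 scale (SE; edgeR adjusted p = 1.31e-06). Zeb2, a zinc finger repressor, rose by 3.2 ± 0.32 (1.99e-05). Myb and Lef1, which serve early T and B lineage cells alike, fell by 5.21 ± 0.41 (4.76e-06) and by 4.58 ± 0.46 (2.24e-05). Jchain, which joins secreted antibodies and marks plasma cells, stood at 73.6 ± 8.57 CPM in controls and 16483 ± 3568 CPM in splenomegaly.

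Splenomegaly and S62A lymphomas shared the mutant and the title code, so this comparison held both constant, although the labels give endogenous MYC for splenomegaly only. Of the 10 members, 9 were higher in splenomegaly and 0 lower, with Pou2af1 not past the test. Among all genes 25.6% were higher and 28.6% lower. The members' median log2 difference was 4.5, and that of all genes −0.07. Pax5 was covered by 1103 reads in splenomegaly and 3 in S62A lymphomas, a ratio of 385.1 after scaling for depth (exact 95% counting interval 131.4 to 1870, counting error only).

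Other members differed by log2 values from 1.43 ± 0.2 (SE, adjusted p = 0.000149 by edgeR) for Tcf4 to 6.54 ± 0.74 (4.41e-05) for Spib. Bach2 was higher by 4.97 ± 0.45 (1.21e-05), Bcl11a by 5.21 ± 0.66 (8.39e-05) and Mef2c by 5.49 ± 0.41 (4.32e-06). Spi1 was higher by 1.94 ± 0.57 (0.0138), and by 1.45 (0.0617) without splenomegaly library 1. Pou2af1 differed by 0.32 ± 0.64 (0.697), less than the spread among the S62A lymphomas.

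Against T58A lymphomas, all 10 members were higher in splenomegaly and past the threshold, while 20.5% of all genes were higher and 24.6% lower. The members' median log2 difference was 2.74, and that of all genes −0.07. Differences ran from 1.37 ± 0.2 (SE, adjusted p = 0.000319 by edgeR) for Tcf4 to 3.31 ± 0.62 (0.00152) for Spib. Pou2af1 was higher by 2.33 ± 0.67 (0.0153), Pax5 by 2.62 ± 0.68 (0.00901) and Bach2 by 3.22 ± 0.41 (0.000145). Spi1, at 1.94 ± 0.57 (0.0171), missed the threshold at 1.46 (0.07) without splenomegaly library 1 and at 1.57 (0.0535) without T58A lymphoma 3.

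**Figure D2:**
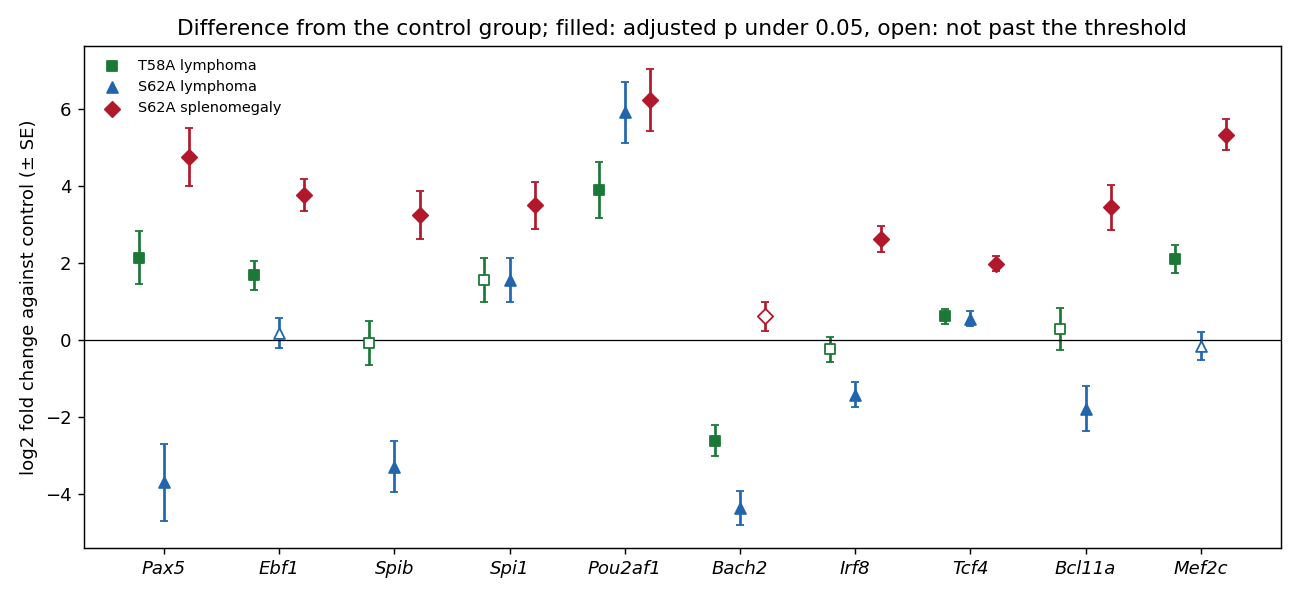
Log2 fold change against control (points) with its standard error (bars) for each gene in the 2 lymphomas and in splenomegaly, n = 3 libraries per group; filled points passed the edgeR threshold and open points did not. Bach2 lies below 0 in both lymphomas, Pou2af1 above 0 in all 3 groups, and Pax5 on opposite sides of 0 in the 2 lymphomas; the 3 groups share the same controls.

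In T58A lymphomas against control, 5 members rose, Bach2 fell and 4 did not pass the test. Among all genes 18.8% were higher and 17.4% lower. The members' median log2 fold change was 1.08, and that of all genes 0.01. Pou2af1 rose 14.9-fold, Mef2c 4.3-fold and Ebf1 3.21-fold, and Bach2 was 6.13-fold lower.

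Log2 fold changes (± SE) were 3.89 ± 0.72 for Pou2af1 (adjusted p = 0.00195 by edgeR), 2.11 ± 0.36 for Mef2c (0.00121) and 1.68 ± 0.38 for Ebf1 (0.00581). Bach2 fell by 2.62 ± 0.4 (0.000629). Tcf4 rose by 0.61 ± 0.19 (0.0298) and Pax5 by 2.13 ± 0.69 (0.0325), with 2 of 3 Pax5 libraries above the controls. Spi1 lay above the controls in 3 of 3 libraries without passing the test, at 1.55 ± 0.57 (0.0531). Spib (−0.07 ± 0.57, adjusted p = 0.937), Irf8 (−0.24 ± 0.32, 0.585) and Bcl11a (0.28 ± 0.55, 0.721) did not pass it either.

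Library 3 decided several of these values. With it as the only T58A library, an alternative chosen after the values were seen, Pax5 stood at −0.12 (0.921), Pou2af1 at 2.15 (0.0543) and Ebf1 at 1.08 (0.122). Spib (−2.74, adjusted p = 0.000214 by edgeR) and Irf8 (−1.41, 0.000531) then passed as lower. Without library 3, Spi1 passed at 1.92 (0.0232). The calls of Tcf4 and Pax5 were each lost without any single control (adjusted p = 0.0773 to 0.0973). Pax5 also lost it without T58A lymphoma 1 (0.0741) or 2 (0.111), and Tcf4 without T58A lymphoma 2 (0.0803) or 3 (0.0827). Without control 3, the control with the adipocyte genes, Ebf1 stood at 2.19 (0.00246). Within the title code H, where control 3 is the only control, 0 members passed by edgeR against 4 at an unadjusted p under 0.05. Pou2af1 then stood at 4.07, Mef2c at 2.13 and Bach2 at −2.23.

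Among the cell type lists in T58A lymphomas, 10 of 20 B cell surface and signalling genes rose and 1 fell, and 6 of 8 plasma cell genes rose. Of 14 plasmacytoid dendritic cell genes 3 rose and 3 fell, and of 15 macrophage and monocyte genes 10 rose and 0 fell. Cd22, an inhibitory receptor of B cells, stood at 39.0 ± 24.9 CPM against 6.11 ± 0.39 in controls (SD, n = 3) and rose by 2.67 ± 0.49 on the log2 scale (SE, adjusted p = 0.00176 by edgeR). Of the 26 other B lineage factors 3 rose and 6 fell. Prdm1 rose by 2.69 ± 0.3 (9.52e-05), and Bcl6, a factor of germinal centre B cells, fell by 1.98 ± 0.31 (0.000717). The B cell sum, like Pax5, was higher in libraries 1 and 2 than in controls. In library 3 the sum lay within the range of the controls and Pax5 below it. The part of B cell number in these levels was not tested.

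In S62A lymphomas against control, 3 members rose, 5 fell and 2 did not pass the test. Pou2af1, 60.2-fold higher, and Bach2, 20.6-fold lower, were at the ends. Among all genes 21.9% were higher and 22.2% lower, so 3 rises of 10 lie near the background and 5 falls of 10 above it. The members' median log2 fold change was −0.79, and that of all genes 0.0.

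Pou2af1 rose by 5.91 ± 0.79 on the log2 scale (SE, adjusted p = 0.00021 by edgeR). Bach2 fell by 4.36 ± 0.44 (3.74e-05), Spib by 3.29 ± 0.66 (0.0023) and Irf8 by 1.42 ± 0.33 (0.00535). Pax5 fell (0.012), from 59 reads in controls to 3, and was 14.5 times higher in controls by this count (exact 95% interval 4.72 to 72.2). Bcl11a fell by 1.78 ± 0.59 (0.0309), while Spi1 rose by 1.55 ± 0.57 (0.0461) and Tcf4 by 0.55 ± 0.19 (0.04). Ebf1 (0.18 ± 0.38, adjusted p = 0.718) and Mef2c (−0.16 ± 0.36, 0.745) did not pass the test. The calls of Spi1, Tcf4 and Bcl11a were the least firm: without any single control Spi1 and Tcf4 missed the threshold (0.0911 to 0.129), and Bcl11a missed it without control 1 (0.0809) or control 2 (0.0632). Without S62A lymphoma 1, Spi1 (0.0766), Tcf4 (0.132) and Bcl11a (0.0956) missed it. Without S62A lymphoma 2, Spi1 stood at 0.98 (0.194), and without S62A lymphoma 3, Tcf4 (0.0693) and Bcl11a (0.0916) missed it. In all, 5 of the 8 calls were left without control 1, control 2 or S62A lymphoma 1.

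Of the 20 B cell surface and signalling genes 3 rose and 5 fell in S62A lymphomas, and of 26 other B lineage factors 5 rose and 7 fell. Fcer2a, the low-affinity receptor for IgE on mature B cells, fell from 5.7 ± 1.3 to 0.241 ± 0.27 CPM (SD, n = 3; adjusted p = 0.0109 by edgeR). Cd72, a receptor of B cells and macrophages, rose from 17.6 ± 0.8 to 99.6 ± 73.7 CPM (0.04). Prdm1 rose by 2.35 ± 0.3 (SE, 0.000156) and Nfatc1 fell by 2.23 ± 0.23 (3.59e-05). Of 15 macrophage and monocyte genes 10 rose and 0 fell, and of 15 T cell genes 1 rose and 10 fell. Of 14 plasmacytoid dendritic cell genes 1 rose and 5 fell, and of 11 conventional dendritic cell genes 0 rose and 4 fell.

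The 2 lymphomas were also compared with each other, since both had been set against the same controls. In S62A against T58A lymphomas, 0 members were higher, 4 were lower and 6 did not pass the test. Among all genes 0.859% were higher and 2.29% lower. The members' median log2 difference was −1.62, and that of all genes −0.01. The 4 lower members were Pax5, Spib, Bach2 and Mef2c, and in each of them the 2 groups did not overlap. Marker genes of other lists were lower too: 6 of 20 B cell surface and signalling genes (median −2.32) and 8 of 11 granulocyte genes tested (median −5.54), with 0 higher in either list. The summed level of the granulocyte genes was 73.6 to 213.5 CPM in T58A and 1.78 to 6.87 CPM in S62A lymphomas, where 5 of them, Ly6g and Elane included, were at 0 reads. Their part in the members' differences was not tested.

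Mef2c was lower by 2.27 on the log2 scale (SE 0.37, adjusted p = 0.019 by edgeR), Spib by 3.23 (SE 0.65, 0.0307) and Bach2 by 1.75 (SE 0.42, 0.0484). Pax5 (0.0193) had 232 reads in T58A and 3 in S62A lymphomas, a ratio of 64.5 after scaling for depth (exact 95% interval 21.8 to 315.2). Ebf1 was lower in 3 of 3 libraries without passing the test, at −1.5 ± 0.38 (0.0572). Irf8 (−1.18 ± 0.33, adjusted p = 0.0726), Bcl11a (−2.05 ± 0.6, 0.0817) and Pou2af1 (2.02 ± 0.66, 0.108) did not pass it. Spi1 differed by 0.0 ± 0.55 (1.0) and Tcf4 by −0.06 ± 0.19 (0.873), and the spread between libraries leaves a wide range for Spi1. With only these 2 groups in the fit 0 members passed, against 8 at an unadjusted p under 0.05, and 8 passed by DESeq2. The calls of Pax5 and Mef2c held with any library left out. That of Spib was lost without T58A lymphoma 2 or any single S62A lymphoma (adjusted p = 0.0623 to 0.083), and that of Bach2 without any library but T58A lymphoma 3 (0.0562 to 0.129). Without T58A lymphoma 3, Ebf1 (0.0343), Irf8 (0.00112) and Bcl11a (0.02) passed as lower, and without S62A lymphoma 2, Pou2af1 passed as higher (0.0489).

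Because B cell genes and several members moved between groups in parallel, each member was also set against the summed level of the 20 B cell genes in its library. Per 1000 CPM of B cell genes, Pou2af1 stood at 30.5 ± 1.75 CPM in controls (SD, n = 3) and 249.4 ± 60.1 in splenomegaly. It stood at 395.9, 224.9 and 140.2 in T58A lymphomas and at 1617, 417.2 and 3835 in S62A lymphomas. Each S62A lymphoma thus lay above every library of the other groups on this ratio. Bach2 ran the other way, at 67.1 ± 13.2 in controls and 11.1 ± 2.12 in splenomegaly. Its lymphomas stood at 6.47 ± 1.65 (T58A) and 3.17 ± 0.367 (S62A). Irf8 and Tcf4 were also lower in splenomegaly than in controls on this ratio. Irf8 went from 173.2 ± 5.06 to 115.7 ± 8.38 and Tcf4 from 118.0 ± 4.64 to 50.4 ± 14.2. In T58A and S62A lymphomas Irf8 stood at 84.3 ± 19.0 and 66.9 ± 18.1, and Tcf4 at 126.7 ± 71.4 and 173.9 ± 35.6.

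Spib stood at 67.9 ± 7.64 per 1000 CPM of B cell genes in controls and 70.1 ± 8.4 in splenomegaly, a difference smaller than the spread in either group. In S62A lymphomas Spib was at 7.09 ± 1.45. Bcl11a stood at 10.9 ± 1.24 in controls and 12.7 ± 2.27 in splenomegaly, and the ranges of the 2 groups overlapped. They also overlapped for Ebf1 (7.83 ± 4.6 and 11.3 ± 1.14) and Spi1 (35.4 ± 3.42 and 43.3 ± 24.0). Pax5 stood at 1.96 ± 0.257 in controls and 5.74 ± 0.882 in splenomegaly. Its T58A lymphomas were at 5.44, 6.42 and 1.86 and its S62A lymphomas at 0, 0.445 and 0. Mef2c stood at 13.2 ± 0.767 in controls and 57.4 ± 16.0 in splenomegaly, with T58A lymphomas at 33.0 ± 5.76 and S62A lymphomas at 12.3 ± 4.19. No test was run on these ratios, whose denominator also holds genes of macrophages and other cells, such as Cd72.

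**Figure D3:**
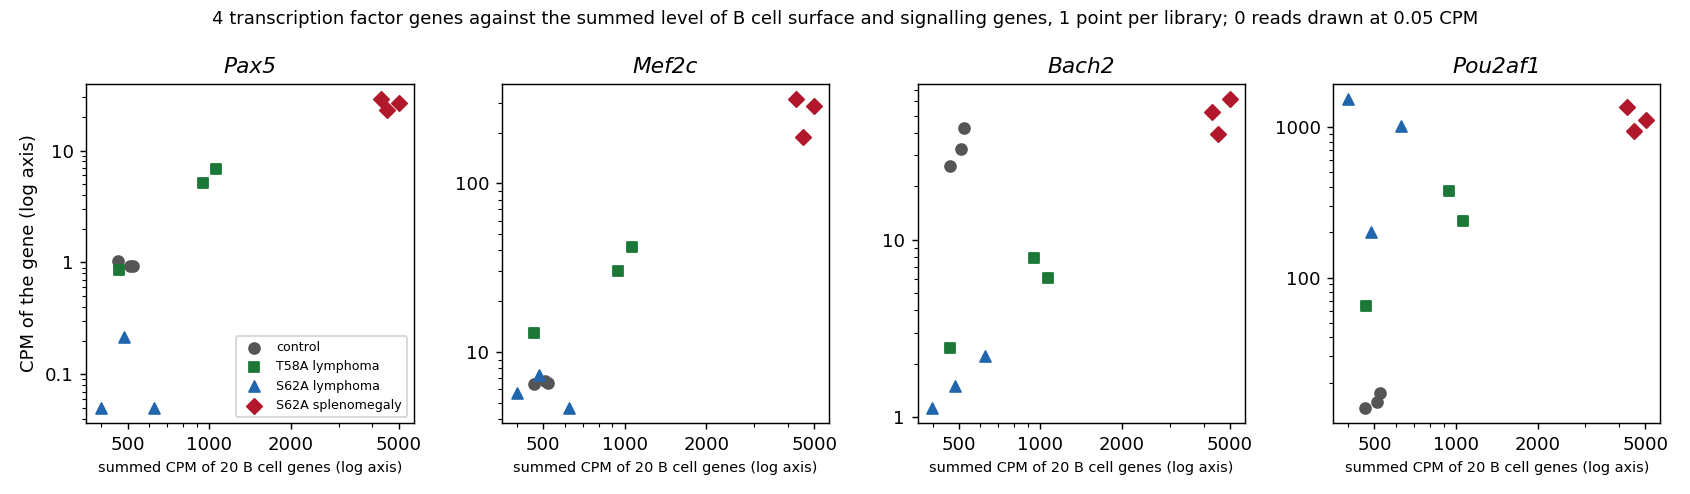
CPM of Pax5, Mef2c, Bach2 and Pou2af1 (log axis) against the summed CPM of 20 B cell surface and signalling genes (log axis), 1 point per library, with 0 reads drawn at 0.05. Splenomegaly lies at the right, from 4288 to 5001 CPM, and at about the same summed B cell level as controls, S62A lymphomas lie above them for Pou2af1 and below them for Pax5 and Bach2.

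The genes whose profile was most like that of each member were listed by Pearson correlation of log2 CPM over the 12 libraries, among 9703 genes. These values describe likeness only, since the 12 libraries form 4 groups whose differences they share. Irf8 was closest to Rab30 (0.993), followed by Ciita, the MHC class II transactivator, and Cd74, the invariant chain (both 0.992). Spib was closest to H2-DMb2 (0.993), followed by Btla and H2-Ob (both 0.991). Bcl11a was closest to Ccr6 (0.99) and Fcrla (0.983). Spi1 was closest to Cd300a (0.99), Ms4a6c (0.986) and Cd72 (0.985).

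Pax5 was closest to St14 (0.986), Mef2c to Rasgrp3 (0.99) and Bach2 to Slfn1 (0.978). Ebf1 was closest to Kdr (0.982), a receptor of blood vessel endothelium, followed by Ptprb and Stac2 (both 0.977). Stac2 was also among the genes closest to Mef2c (0.989). Tcf4 was closest to Ndfip1 (0.979) and Pou2af1 to Ptpn9 (0.97). Among the members themselves, Spib with Irf8 and Ebf1 with Mef2c were the closest pairs (0.98 each). Pou2af1 ranged from −0.21 with Bach2, 0.16 with Spib and 0.17 with Pax5 to 0.69 with Spi1 and 0.73 with Tcf4.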

How the data were processed

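RNA of 12 libraries was analysed. For every RefSeq transcript on mm9 the authors deposited a raw read count and an FPKM value, which is scaled to transcript length and library size. Bcl2fastq 2.20.0.422, Bowtie 1.0.0 and DESeq2 were used per the submitters' processing notes. Per the labels' protocols the kit kept strand; the sources used here do not say how reads were counted or whether strand was used in counting, so overlapping genes are uncertain. Starts were taken as counted from 0 in the files and are printed counted from 1; this could not be settled. Ebf1 and Bcl11a had 4 transcript rows each, Irf8, Tcf4 and Mef2c 2, the others 1. Rows of the same gene could hold almost equal counts, such as 1741 and 1740 reads for Irf8 in control 1. The same read may thus be counted on several rows, and summed rows may hold it more than once.

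The deposited counts were fitted with edgeR 4.0.16 in R 4.3.3 (filterByExpr with a minimum count of 10, TMM scaling, quasi-likelihood test, group as the only term, all 12 libraries in 1 fit, Benjamini-Hochberg adjustment), which tested 15606 genes and all 10 members; the script was tested on simulated data. CPM are scaled by TMM, and the SE is the log2 fold change over the root of F. Libraries ranged from 9577373 to 22437969 reads, and counting intervals cover counting error only. Groups came from the titles. Replicate numbers follow the order of deposit. Alternatives were DESeq2 1.42.0, its size factors, library size alone, no filter, only the 2 groups compared, summed transcript rows, limma 3.58.1 on log2(FPKM + 0.1) and log2(FPKM + 1), each library left out, and title code H.

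The members and lists were chosen with earlier results of these data known. All members were named; per list, up to 2 risen and 2 fallen genes with the smallest adjusted p; per member, up to 3 genes of most similar profile with at least 20 CPM in a group. Jchain, Siglech, Pou2f1, Pou2f2 and Irf4 were named in addition. The adipocyte list was added after values were seen. Proteins and a list of fibroblasts were not used here, and the results of 2 genes are not reported here.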

Additional observations from a re-analysis of the deposited data

Results flagged for a closer look

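The effects of the 2 mutants on lymphomas, each against the same controls, differed for 4 members by the direct comparison of S62A with T58A lymphomas (edgeR, 15606 genes tested). For Pax5 the log2 difference was −5.83 (SE 0.96, adjusted p = 0.0193), with S62A lower in 3 of 3 libraries. For Spib it was −3.23 (SE 0.65, adjusted p = 0.0307), for Bach2 −1.75 (SE 0.42, adjusted p = 0.0484) and for Mef2c −2.27 (SE 0.37, adjusted p = 0.019), again with 3 of 3 S62A libraries below all T58A libraries. Among all genes 2.29% were lower in S62A lymphomas by the same test. The title code changed with the mutant, from H to I, and the 2 cannot be told apart.

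The T58A libraries were not alike. With T58A lymphoma 3 as the only T58A library, chosen after the values were seen, the differences were −3.57 for Pax5 (adjusted p = 0.0868), −0.54 for Spib (0.245), −0.64 for Bach2 (0.473) and −1.18 for Mef2c (0.0792). The summed level of the B cell genes in that library was 464 CPM, against 944.9 and 1062 in the others. Its part in the differences was not tested. Groups of 3 libraries were not examined for single values far from the rest.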

How the results depend on the processing

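The 9 members called in splenomegaly against control, and the 9 against S62A lymphomas, numbered 9 to 10 and 8 to 9 under all alternatives run, and the 10 against T58A lymphomas 9 to 10. For T58A lymphomas against control, 6 members were called, 4 to 6 with a library left out, and 0 within title code H, where 413 genes passed instead of 5646. For S62A lymphomas against control, 8 were called, 5 to 7 with a library left out, and 4 by limma on log2(FPKM + 1). For S62A against T58A lymphomas, 4 members and 492 genes were called, and 2 to 7 members and 139 to 783 genes with a library left out. There DESeq2 called 8 members and 1754 genes, limma 2 members with either pseudocount, the fit of only these 2 groups 0 members and 0 genes (8 members and 2045 genes at an unadjusted p under 0.05), and the fit with T58A lymphoma 3 alone 0 members and 319 genes (4 members at an unadjusted p under 0.05). The cause was not tested. The fit of title code H and that of T58A lymphoma 3 each have 1 library in an arm, which is assumed to vary like the other libraries.

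Of 880 alternative values of single members, 773 kept direction and call, 71 lost the call, 15 gained it and 21 changed sign, 20 of these without a call in either fit; the exception was Pax5 in T58A lymphomas against control, at −0.12 with T58A lymphoma 3 alone. In that comparison Bcl11a turned to −0.3 with transcript rows summed, 0.0 by limma on log2(FPKM + 0.1), −0.05 without T58A lymphoma 1 and −1.46 with T58A lymphoma 3 alone; Spib to 0.07 without control 1, 0.44 without T58A lymphoma 3 and 0.16 within title code H; and Irf8 to 0.12 without T58A lymphoma 3. Ebf1 in S62A lymphomas against control was −0.03 without control 1 and 0.0 without control 2. In S62A against T58A lymphomas Spi1, at 0.0, took values of 0.02 without a filter, 0.0 with only the 2 groups, 0.47 and 0.02 without T58A lymphoma 1 or 2, 0.01 and 0.4 without S62A lymphoma 1 or 3 and 1.21 with T58A lymphoma 3 alone; Tcf4 was 0.06 without S62A lymphoma 2 and Irf8 0.01 with T58A lymphoma 3 alone. Pou2af1 in splenomegaly against S62A lymphomas was −0.16 without S62A lymphoma 2. With a library left out, these values ran from −0.05 to 0.71 for Bcl11a, −0.98 to 0.44 for Spib and −0.7 to 0.12 for Irf8 in T58A lymphomas against control, from −0.03 to 0.7 for Ebf1, from −0.57 to 0.47 for Spi1, from −0.2 to 0.06 for Tcf4 and from −0.16 to 0.91 for Pou2af1.

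No paired analysis was possible because the replicate numbers are only names and no label links libraries of different groups. Depth limits Pax5 and Bcl11a in S62A lymphomas most, with 3 and 69 reads in all.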

Other observations

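Bcl11a was counted on several transcript rows, and the ratio of reads on NM_016707 to those on NM_001242934 was looked at by group, an observation made after the values were seen and not tested. It was 0.71, 0.887 and 0.924 in controls and 0.713, 0.492 and 0.663 in splenomegaly. The T58A lymphomas gave 0.406, 0.522 and 0.394 and the S62A lymphomas 0.462, 0.405 and 0.429. The controls thus lay above every lymphoma library. In S62A lymphomas the ratio rests on 29 and 69 reads, and the rows may share reads.

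Irf4, a factor of plasma cells and activated lymphocytes, stood at 10.9, 20.3 and 200.5 CPM in the 3 S62A lymphomas. In controls it was at 15.2 ± 0.571 CPM (SD, n = 3). T58A lymphomas, at 48.0, 81.5 and 20.5 CPM, and splenomegaly, at 400.9, 528.9 and 655.5 CPM, lay above every control. S62A lymphoma 3, with the highest Irf4 value of its group, was also the S62A lymphoma with the most Pou2af1 and the least Spi1.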
